A study of Mus musculus with 6 samples.

Results

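The genes described here are 46 genes of the liver's blood vessel lining, which were looked up by name in a table of raw read counts for 23412 gene symbols. All 46 were found. They cover surface proteins and receptors carried by endothelial cells in general, genes of the sinusoidal endothelium, transcription factors, arterial and Notch genes, and ligands that endothelial cells send to hepatocytes. RNA was sequenced from whole liver of C57BL/6J mice, an inbred strain, labelled as 8 weeks of age. All mice had eaten a high-fat diet for 4 weeks. In 1 group (3 libraries) they then received liraglutide, an agonist of the receptor for the gut hormone glucagon-like peptide 1, under the skin at 300 µg/kg for 3 days, and the other group (3 libraries) is labelled PBS, phosphate-buffered saline, for the same 3 days. The libraries are called Lira161, Lira162 and Lira164 and PBS155, PBS157 and PBS158 after their columns. Whether each library is a separate animal is not stated in the labels, and the p-values therefore rest on a spread between libraries that may be technical.

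The capillaries of the liver, the sinusoids, are lined by a flat endothelium with open pores and no continuous basement membrane. These cells take up waste macromolecules through scavenger receptors such as stabilins and sense the flow of portal blood. Their secreted Wnt, R-spondin and BMP ligands set zonal metabolism and iron control in neighbouring hepatocytes. Larger arteries and veins carry a continuous endothelium marked by von Willebrand factor and, in arteries, by connexins and Notch ligands.

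Total counts lay between 20888991 and 27007182 per library. A gene is called changed where its adjusted p, from the quasi-likelihood test of edgeR, is under 0.05, and this held for 1107 of 12626 tested genes. Levels are given as CPM, read counts scaled to library depth with TMM factors, and a fold change is liraglutide against PBS. The RNA is from whole liver, so a change in the number of endothelial cells and a change in RNA per cell cannot be told apart for any gene below.

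The endothelial genes of this list were higher after liraglutide where they changed. The list was chosen with earlier results of these data known, so its share of changed genes is no test of the list. Of the 45 members that passed the filter on low counts, 10 rose and none fell, where 4.08% of all tested genes rose and 4.69% fell. The 10 were Gja4, Vcam1, Ramp2, Plvap, Ehd3, Klf2, Clec4g, Stab1, Gpihbp1 and Esam. The remaining 35 did not pass the test, and 17 of them had an unadjusted p below 0.05. With called genes included, such a p was seen in 27 of the 45 members and in 3230 of the 12626 tested genes. The median log2 fold change of the 45 was 0.67, against 0.01 over all tested genes, and 42 of the 45 had a value above 0. Hey1, a Notch target gene with between 5 and 13 counts per library, did not pass the filter. Without the filter all 46 were tested, 11 rose and the median was 0.66.

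**Figure D1:**
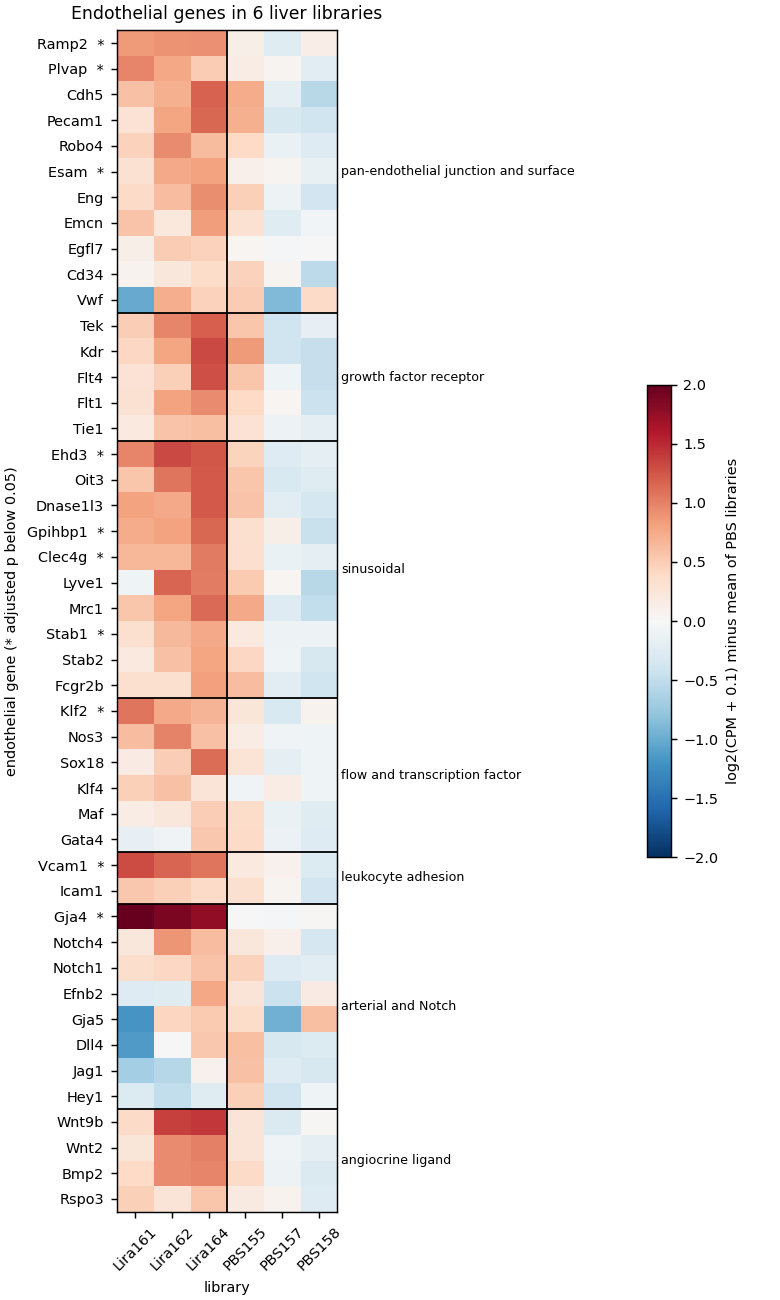
Level of the 46 endothelial genes (rows, grouped by role) in 6 libraries (columns), coloured by log2(CPM + 0.1) relative to the PBS mean; stars mark the 10 genes past the threshold. Most rows are red in the liraglutide columns, and library PBS155 is red in many of them too.

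In 21 of the 46 members every liraglutide library lay above every PBS library, as it did in 14.9% of all tested genes. For the other members the groups overlapped. Library PBS155 was the highest PBS library for 41 of the 45 tested members. It exceeded library Lira161 for 23 of them, Lira162 for 12 and Lira164 for 4, while over all tested genes it exceeded each of these for between 49.6% and 50.1%. The summed level of the 46 members was 797, 926 and 1070 CPM in Lira161, Lira162 and Lira164, and 763, 506 and 464 CPM in PBS155, PBS157 and PBS158. PBS155 therefore stood close to Lira161 and well above the other PBS libraries.

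The count of 10 depended on the libraries used. Without PBS155, 21 of the 45 members rose, and the median log2 fold change was 0.83. In that comparison 962 of 12729 tested genes changed in either direction (7.56%), and 486 rose (3.82%). The 12 members added were Pecam1, Cdh5, Kdr, Tek, Eng, Robo4, Fcgr2b, Mrc1, Oit3, Dnase1l3, Notch1 and Bmp2, and Esam lost its call. Without Lira161, Lira162 or Lira164 the count was 8, 3 and 8, and without PBS157 or PBS158 it was 5 and 3. Over all tested genes the count of changes in either direction moved as well. It was 462, 393 and 1496 without Lira161, Lira162 and Lira164, and 653 and 414 without PBS157 and PBS158. These totals include falls, so they are not the matching background for the rises of members. No member fell in any of these comparisons. DESeq2's Wald test on all libraries called 17 of 46 members, all higher, and 1621 of 13330 genes (12.2%), of which 766 were higher (5.75%).

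Markers of other liver cells were read in the same libraries. Of 18 Kupffer cell and macrophage markers none passed the test, while 16 had a log2 fold change above 0 and the median was 0.53, against 0.67 for the endothelial members. The summed level of this list ranged from 438 to 633 CPM under liraglutide and from 333 to 732 under PBS, with PBS155 the highest of the 6 libraries, and none of the 18 was at 0. The 18 markers of stellate cells and fibroblasts, none of which passed or was at 0, summed to between 583 and 641 CPM under liraglutide and between 348 and 548 under PBS. Their median log2 fold change was 0.32, with 14 of 18 above 0. Of 9 vascular smooth muscle markers 6 were tested and none passed (median 0.21, 5 above 0). They summed to between 124 and 145 CPM under liraglutide and between 140.4 and 156 under PBS, and Pln was at 0 in all libraries. Hepatocyte markers summed to between 98600 and 117689 CPM under liraglutide and between 112262 and 133055 under PBS. Among the 11 of them Hnf4a rose (log2 fold change 0.53 ± 0.13, SE, edgeR adjusted p = 0.0338), a call lost without Lira161, Lira162, PBS155 or PBS157, and none was at 0. The median of the 11 was -0.17, with 5 above 0. The groups did not overlap for 5 of them, higher under liraglutide for Hnf4a and Cps1 and lower for Serpina1a, Trf and Fgb. Over all 12626 tested genes they did not overlap for 1879 higher and 2072 lower, so this count is no result about hepatocytes. The part of these other cells in the endothelial values was not tested.

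**Figure D2:**
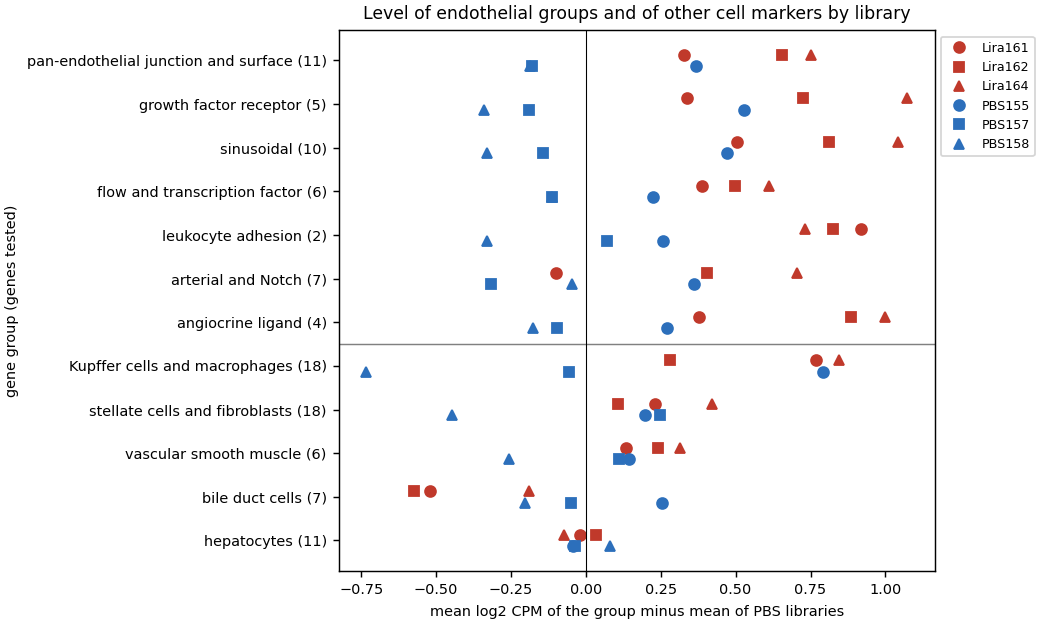
Mean log2 CPM of each endothelial role group and of 5 marker lists of other liver cells (rows, with the number of genes tested), relative to the PBS mean, for each of 6 libraries. In the sinusoidal group the liraglutide libraries stand at 0.51, 0.81 and 1.04 and PBS155 at 0.47; PBS155 also stands high for Kupffer cell markers, at 0.79.

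The labelled tissue was checked against the defining genes of its endothelium. Sinusoidal genes were counted in all 6 libraries, and no member was at 0 in any library. Per kilobase of exon, the highest PBS levels were those of Plvap at 15.0 ± 1.87 CPM per kb (SD, n = 3), Clec4g at 12.1 ± 2.57, Eng at 10.3 ± 3.25 and Ehd3 at 6.10 ± 1.74. Each of these differed from its neighbour in this order by less than the sum of their SDs. Plvap and Eng are grouped here with the general endothelial genes. Vwf (0.302 ± 0.135), Cd34 (0.164 ± 0.058) and Gja5 (0.0685 ± 0.0409), genes of larger vessels, were among the lowest on the same scale. So were Wnt9b (0.168 ± 0.035) and Hey1 (0.0999 ± 0.0414). The arterial genes Gja4 (1.25 ± 0.03) and Dll4 (0.749 ± 0.299) stood higher, and the sinusoidal genes Stab1 (2.76 ± 0.34) and Lyve1 (2.38 ± 0.87) were not among the highest. The list as a whole was therefore not split by vessel type.

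Promoter windows of 3 of the 10 genes are given as examples that hold sequence words known to be bound by endothelial regulators. Klf2 is itself a flow-induced regulator, Gja4 had the largest fold change of the members and Ehd3 the largest of the sinusoidal genes. Each line is the 250 bases before the gene's start in RefSeq (GRCm38.p6), 5′ to 3′ on the gene's strand, at chr8:72318812-72319061 (plus strand) for Klf2, chr4:127314040-127314289 (minus) for Gja4 and chr17:73804591-73804840 (plus) for Ehd3. For Gja4 the RefSeq start is that of GENCODE M21. The starts of Ehd3 and Klf2 differ, so that the Ehd3 window lies within the GENCODE span of its gene and the end of the Klf2 window runs into that of Klf2. Capitals mark matches, on either strand, to CNGGAAG (ETS factors), CCNCNCCC (KLF factors), the MEF2 word (CTA and TAG with any 4 letters between) or GTGGGAA (RBPJ, the DNA-binding partner of Notch).
Klf2: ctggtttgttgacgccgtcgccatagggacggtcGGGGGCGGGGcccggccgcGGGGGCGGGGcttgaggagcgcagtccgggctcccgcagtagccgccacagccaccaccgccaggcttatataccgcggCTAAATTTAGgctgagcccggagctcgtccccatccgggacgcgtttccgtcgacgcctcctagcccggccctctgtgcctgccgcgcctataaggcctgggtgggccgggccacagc
Gja4: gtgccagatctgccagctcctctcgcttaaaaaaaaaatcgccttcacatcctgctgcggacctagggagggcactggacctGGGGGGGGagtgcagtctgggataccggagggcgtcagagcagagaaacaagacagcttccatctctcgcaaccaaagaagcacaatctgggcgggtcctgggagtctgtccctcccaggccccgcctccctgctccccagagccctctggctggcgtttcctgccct
Ehd3: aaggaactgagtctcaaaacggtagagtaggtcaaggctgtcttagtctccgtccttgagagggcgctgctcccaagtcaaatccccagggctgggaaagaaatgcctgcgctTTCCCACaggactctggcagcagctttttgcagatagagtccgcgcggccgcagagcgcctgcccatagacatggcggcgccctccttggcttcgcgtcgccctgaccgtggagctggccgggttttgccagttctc
The Klf2 window held 1 MEF2 match, CTAAATTTAG, at position -118 from the start, and 4 KLF matches that overlap in pairs. The Gja4 window held 1 KLF match and the Ehd3 window 1 RBPJ match. Of the other called genes, the Stab1 window held 1 ETS match and the Clec4g window no match. The set of windows used here included none for Vcam1, Ramp2, Plvap, Gpihbp1 and Esam. This set does not cover every gene. In its 32851 windows of this length, 45.9% held a KLF match, 26.6% an ETS match, 5.42% an RBPJ match and 3.20% a MEF2 match. Of the 30 windows listed for 28 members, 21 held a KLF match, 13 an ETS match, 3 an RBPJ match and 1 a MEF2 match. These are matches of letters and not sites of binding.

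Among 11 surface and junction genes shared by endothelial cells in general, Ramp2, Plvap and Esam rose and none fell, with a median log2 fold change of 0.64. Ramp2 (chromosome 11, 101246028 to 101259546, GRCm38) codes for the partner protein that turns the calcitonin receptor-like receptor into a receptor for adrenomedullin, a peptide that keeps vessels tight. It was at 7.43, 7.72 and 7.79 CPM in Lira161, Lira162 and Lira164 and at 4.43, 3.43 and 4.46 in PBS155, PBS157 and PBS158. The groups did not overlap, and the log2 fold change was 0.90 ± 0.16 (SE, edgeR adjusted p = 0.0133). Exons of Ramp2 overlap those of Vps25 on the same strand by 1103 bp, so its value is uncertain. Plvap (chromosome 8, 71497765 to 71511752) codes for the protein of the diaphragms that span endothelial pores and caveolae. It was at 58.5, 51.0 and 42.2 CPM in the liraglutide libraries and at 32.9, 31.0 and 25.7 in the PBS libraries, in the same order of libraries. The lowest liraglutide library was above the highest PBS library, and the log2 fold change was 0.76 ± 0.14 (adjusted p = 0.0135). Esam (chromosome 9, 37528078 to 37538319), a cell adhesion molecule of tight junctions, was at 8.68, 11.9 and 12.4 CPM against 7.55, 7.28 and 6.29. Its groups were close but did not overlap, and the log2 fold change was 0.64 ± 0.17 (adjusted p = 0.0442).

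The other 8 genes of this kind had log2 fold changes between 0.13 and 0.74 and adjusted p between 0.0751 and 0.907. Pecam1 and Cdh5, the classical junction markers, were singled out after their values were seen. Pecam1 was at 14.0, 20.0 and 25.6 CPM in the liraglutide libraries and at 18.9, 9.16 and 8.74 in the PBS libraries. Cdh5 was at 20.3, 22.2 and 30.9 CPM against 22.6, 11.8 and 9.22. For both, PBS155 lay within the range of the liraglutide libraries. Their log2 fold changes were 0.69 ± 0.36 (adjusted p = 0.292) and 0.74 ± 0.35 (adjusted p = 0.254) over all libraries, and 1.14 (adjusted p = 0.0421) and 1.20 (adjusted p = 0.0191) without PBS155. With any other library left out neither was called, with adjusted p up to 0.539 for Pecam1 and 0.484 for Cdh5. Ramp2 lost its call without Lira162 (adjusted p = 0.0565), and Plvap without PBS158 (0.0517). Esam kept its call only without Lira161 among the comparisons with a library left out (otherwise up to 0.163), and lost it in limma-voom (0.0519).

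None of the 5 growth factor receptor genes passed the test, although all were on the higher side, with a median log2 fold change of 0.70. Tek, the receptor for angiopoietins, was at 10.6, 14.8 and 17.2 CPM in Lira161, Lira162 and Lira164 and at 11.0, 5.70 and 6.72 in PBS155, PBS157 and PBS158. PBS155 exceeded Lira161, and the log2 fold change was 0.86 ± 0.28 (adjusted p = 0.0976). Flt1, a VEGF receptor that also acts as a decoy, was at 7.04, 9.9991 and 11.0 CPM against 7.48, 5.78 and 4.18, again with PBS155 above Lira161 (0.68 ± 0.24, adjusted p = 0.110). Tie1, a co-receptor of Tek, was at 10.3, 13.4 and 13.7 CPM against 11.0, 8.35 and 7.87 (0.46 ± 0.17, adjusted p = 0.129). Kdr and Flt4, the main VEGF receptors of blood and lymphatic endothelium, had adjusted p of 0.357 and 0.288. Kdr varied 2.49-fold among the PBS libraries alone, with PBS155 the highest. Without PBS155, Kdr and Tek were called, at log2 fold changes of 1.31 (adjusted p = 0.0481) and 1.19 (0.0217), and DESeq2 called Tek on all libraries (0.0148). Neither was called with any other library left out, with adjusted p up to 0.635 for Kdr and 0.258 for Tek.

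Of the 10 sinusoidal genes, Ehd3, Clec4g, Stab1 and Gpihbp1 rose and none fell, with a median log2 fold change of 0.76. Ehd3 (chromosome 17, 73804134 to 73832094) codes for a protein that shapes endosomal membranes. It was at 76.5, 97.2 and 92.4 CPM in the liraglutide libraries and at 53.2, 32.5 and 34.3 in the PBS libraries. The groups were well apart, with means of 88.7 ± 10.9 and 40.0 ± 11.4 (SD, n = 3) and a log2 fold change of 1.15 ± 0.20 (adjusted p = 0.0142). Clec4g (chromosome 8, 3707064 to 3720651), a C-type lectin of sinusoidal cells, was at 46.5, 46.6 and 60.8 CPM against 37.1, 26.7 and 25.6. Its groups did not overlap (0.78 ± 0.17, adjusted p = 0.0250).

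Stab1 (chromosome 14, 31139013 to 31168641), a scavenger receptor that takes up modified proteins, was at 35.5, 44.6 and 48.0 CPM against 32.4, 26.5 and 26.4, without overlap (0.59 ± 0.13, adjusted p = 0.0290). Its exons overlap those of Nt5dc2 on the opposite strand by 112 bp, and no source used here gives the strand setting. Gpihbp1 (chromosome 15, 75596628 to 75599481), which carries lipoprotein lipase to the vessel wall, was at 12.3, 12.9 and 16.4 CPM against 9.20, 8.01 and 5.38. All liraglutide values were above all PBS values (0.87 ± 0.20, adjusted p = 0.0303). Ehd3 was no longer called without Lira162 (or without PBS158; adjusted p up to 0.0558). Clec4g and Gpihbp1 kept theirs only without Lira164 or PBS155 and Stab1 only without Lira161 or PBS155, with adjusted p otherwise up to 0.0884, 0.0768 and 0.108.

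The other 6 sinusoidal genes, Stab2, Lyve1, Fcgr2b, Mrc1, Oit3 and Dnase1l3, had log2 fold changes between 0.43 and 0.92 and adjusted p between 0.0883 and 0.410. Fcgr2b, Mrc1 and Stab1 are also known in macrophages, whose marker list is given above. For Oit3 and Dnase1l3, a secreted DNase, the groups did not overlap. Both were called by DESeq2 (adjusted p = 0.00303 and 0.00255), as well as without PBS155. Leaving out any other library gave no call, with adjusted p up to 0.243 for Oit3 and 0.221 for Dnase1l3.

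**Figure D3:**
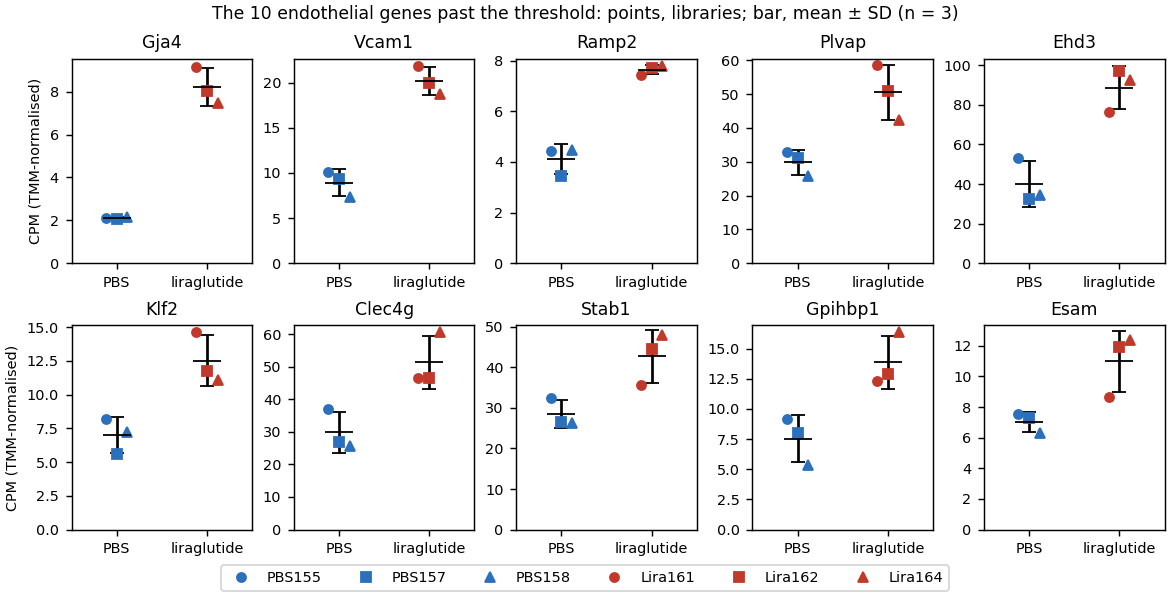
CPM of the 10 endothelial genes past the threshold in each library (points; circles, squares and triangles are Lira161, Lira162 and Lira164, and PBS155, PBS157 and PBS158), with the mean and SD of 3 libraries per group. For Gja4 the PBS libraries lie between 2.06 and 2.16 and the liraglutide libraries between 7.46 and 9.16.

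Among 6 flow and transcription factor genes, Klf2 rose and none fell, with a median log2 fold change of 0.55. Klf2 (chromosome 8, 72319033 to 72321656) codes for a transcription factor that laminar flow induces in endothelium and that also acts in lymphocytes. It was at 14.7, 11.8 and 11.1 CPM in Lira161, Lira162 and Lira164 and at 8.17, 5.57 and 7.25 in PBS155, PBS157 and PBS158. The groups did not overlap, and the log2 fold change was 0.83 ± 0.18 (adjusted p = 0.0215). Klf2 kept its call only without Lira164 or PBS155 (otherwise adjusted p up to 0.0809). Nos3, the endothelial nitric oxide synthase gene and a known target of Klf2, was at 4.20, 5.44 and 4.08 CPM against 3.00, 2.57 and 2.54. Its groups did not overlap, but it missed the threshold (0.76 ± 0.20, adjusted p = 0.0521) and passed with library totals as the scaling and with DESeq2. Nos3 was not called with any library left out (adjusted p up to 0.217). Exons of Nos3 overlap those of Atg9b on the opposite strand by 294 bp, and without a known strand setting the reads there cannot be assigned. Sox18, a factor of vessel formation, was at 3.04, 3.86 and 5.96 CPM against 3.30, 2.36 and 2.54, with overlap (0.65 ± 0.28, adjusted p = 0.183). Klf4, Maf and Gata4 had log2 fold changes between 0.11 and 0.46. Gata4 and Maf are known to specify the sinusoidal type of endothelium, with Maf also made in macrophages, and their adjusted p were 0.798 and 0.364.

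Of the adhesion molecules that leukocytes bind on endothelium, Vcam1 rose. Vcam1 (chromosome 3, 116109949 to 116129688), which binds integrins of lymphocytes and monocytes, was at 21.9, 20.0 and 18.7 CPM in the liraglutide libraries and at 10.1, 9.38 and 7.30 in the PBS libraries. The groups were well apart, with means of 20.2 ± 1.58 and 8.93 ± 1.46 (SD, n = 3) and a log2 fold change of 1.17 ± 0.14 (adjusted p = 0.00397). Vcam1 is also made by Kupffer and stellate cells. It kept its call with each library left out in turn (adjusted p at most 0.0196). Icam1, which binds leukocyte beta-2 integrins, was at 11.3, 10.8 and 10.1 CPM against 9.71, 8.05 and 5.90, with no overlap but without a call (0.44 ± 0.18, adjusted p = 0.161).

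Of the 7 tested arterial and Notch genes only Gja4 passed, and the median log2 fold change was 0.15. Gja4 (chromosome 4, 127311421 to 127314039) codes for connexin 37, a gap junction protein of arterial endothelium. It was at 9.16, 8.03 and 7.46 CPM in Lira161, Lira162 and Lira164 and at 2.13, 2.06 and 2.16 in PBS155, PBS157 and PBS158. The PBS libraries hardly differed, with means of 8.22 ± 0.868 and 2.11 ± 0.0533 (SD, n = 3), a 3.88-fold difference (log2 fold change 1.96 ± 0.17, adjusted p = 0.00222). It kept its call with each library left out in turn (adjusted p at most 0.0119), with log2 fold changes between 1.87 and 2.01. Gja5, which codes for the arterial connexin 40, had between 2 and 13 counts per library and a log2 fold change of -0.01 ± 0.66 (adjusted p = 0.997), so only a very large difference would have been detectable. The difference between the responses of Gja4 and Gja5 was not tested.

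The receptor genes Notch4 and Notch1 had log2 fold changes above 0 and the ligand genes Jag1 and Dll4 below 0, all short of the threshold. Notch4, the endothelial Notch receptor, was at 3.09, 4.90 and 4.08 CPM against 3.08, 2.83 and 2.06, with library Lira161 barely above PBS155 (0.60 ± 0.25, adjusted p = 0.166). Notch1 was at 21.2, 22.3 and 24.8 CPM against 23.0, 13.9 and 14.4 (0.41 ± 0.19, adjusted p = 0.228). The ligand gene Jag1, singled out after its values were seen as the member with the lowest log2 fold change (-0.42 ± 0.32, adjusted p = 0.439), was at 2.41, 2.63 and 4.21 CPM against 5.94, 3.30 and 3.12. The ligand genes Dll4 and Efnb2 had log2 fold changes of -0.11 and 0.15, and both changed sign when single libraries were left out.

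None of the 4 genes for ligands sent to hepatocytes passed the test, with a median log2 fold change of 0.78. Bmp2, which raises hepcidin in hepatocytes, was at 18.8, 27.6 and 28.2 CPM in the liraglutide libraries and at 18.6, 13.3 and 11.7 in the PBS libraries. Lira161 was barely above PBS155 (0.77 ± 0.21, adjusted p = 0.0627). Bmp2 passed without Lira161, without PBS155 and with DESeq2, but not with any other library left out (adjusted p up to 0.192). Wnt9b, made by endothelium of the central vein, was at 1.01, 2.08 and 2.17 CPM against 0.916, 0.599 and 0.768, from no more than 54 counts in a library (1.20 ± 0.36, adjusted p = 0.0726). Wnt2, the other Wnt gene of this group, was at 2.41, 4.02 and 4.21 CPM against 2.46, 1.93 and 1.78, with overlap (0.79 ± 0.27, adjusted p = 0.103). For Rspo3, which strengthens Wnt signals in pericentral hepatocytes, the groups did not overlap, and the log2 fold change was 0.43 ± 0.16 (adjusted p = 0.140).

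**Figure D4:**
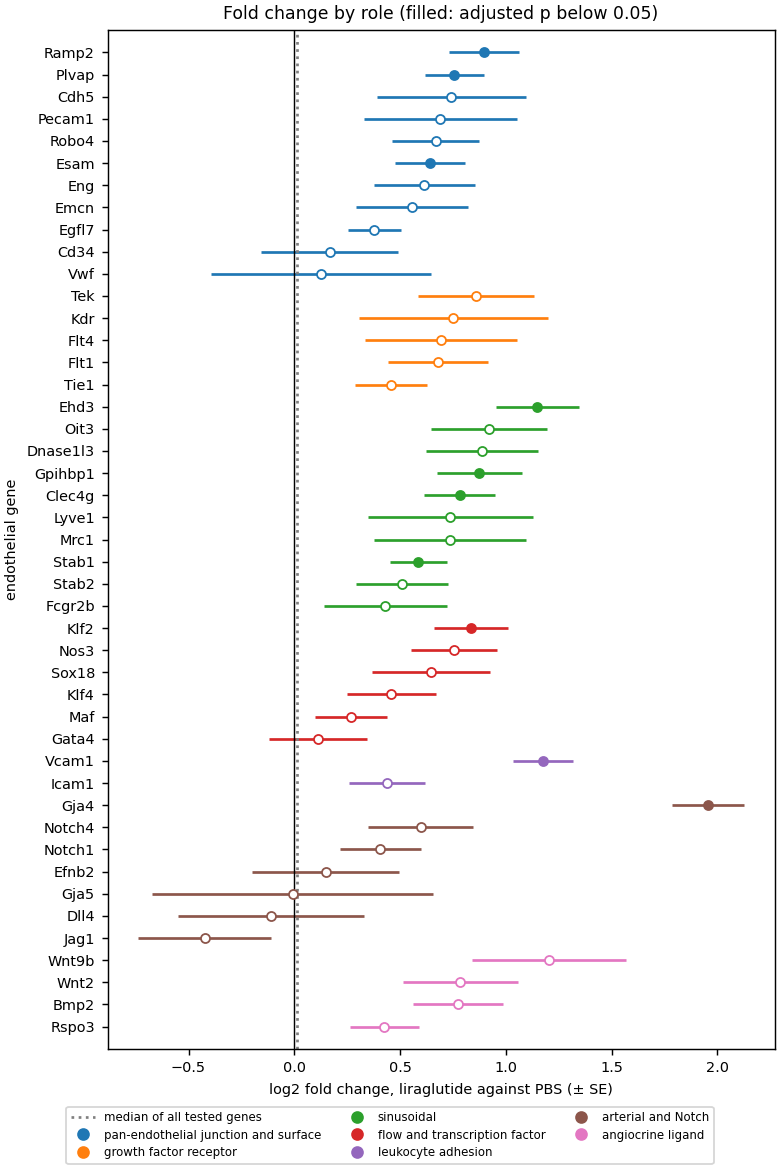
Log2 fold change of liraglutide against PBS (x axis, ± SE) for the 45 tested endothelial genes (y axis), coloured by role, with filled points past the threshold and a dotted line at the median of all tested genes, 0.01. Jag1, Dll4 and Gja5 are the members below 0, and Gja4 stands apart at 1.96.

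To show how the members moved relative to each other, the log2 level of each was set against the mean of the 11 general surface and junction genes in the same library (leaving the member itself out), and the PBS mean was subtracted. This measure was chosen after the values were seen and is a description without a test. The scaling between libraries enters it only through the prior count of 2, which weighs most for genes with few counts. For Gja4, Vcam1, Ehd3 and Oit3 all liraglutide libraries were above all PBS libraries on this scale, as they were in 1.13% of all tested genes. Gja4 was at 1.75, 1.23 and 1.03 in Lira161, Lira162 and Lira164 and at -0.36, 0.14 and 0.22 in PBS155, PBS157 and PBS158. Ehd3 was at 0.64, 0.66 and 0.49 against 0.08, -0.08 and 0.00. For Gata4, Maf, Dll4 and Jag1 all liraglutide libraries were below all PBS libraries, as in 38.4% of all tested genes. The reference genes had a median log2 fold change of 0.64, against 0.01 over all tested genes. Both shares therefore depend on the choice of reference. Stab1 was at 0.00, -0.00 and 0.01 under liraglutide and at -0.17, 0.09 and 0.08 under PBS, with overlap between the groups.

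Other vascular genes came from 7 lists that left out the members. Of their 142 tested genes 7 rose and 2 fell, with a median log2 fold change of 0.15. The share that rose was near the 4.08% of all tested genes, so the count is no result about these lists. In the 28 tested genes of a further list of general endothelial genes the median was 0.57, with 25 above 0. Tmem204 (0.87 ± 0.19, adjusted p = 0.0236) and Cd93 (1.08 ± 0.28, adjusted p = 0.0472), a surface lectin-like receptor of endothelium, rose. For 12 of the 28 every liraglutide library lay above every PBS library and for 2 below, as for 1879 and 2072 of the 12626 tested genes. These 2, without a call, were S1pr1 (-0.95 ± 0.27, adjusted p = 0.0780) and Sox13 (-0.53 ± 0.14, adjusted p = 0.0523). Among 24 tested genes of a further sinusoidal list Thbd rose and Cd4 fell, with a median of 0.35. The list summed to between 8164 and 11087 CPM in the 6 libraries, against 194 to 488 for the sinusoidal members. Its genes Cd4 and Sdc1 also stand on lists of other cells, so the median need not be one of sinusoidal endothelium. Thbd, which codes for the anticoagulant thrombomodulin and is a known Klf2 target, was at 6.90, 9.999 and 6.79 CPM in the liraglutide libraries and at 3.26, 2.70 and 2.69 in the PBS libraries (1.45 ± 0.21, adjusted p = 0.00601). Cd4, better known from T cells, was at 0.868, 0.386 and 0.542 CPM against 1.94, 2.23 and 2.83 (-1.97 ± 0.35, adjusted p = 0.0116).

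In the Notch pathway outside the members, Hes1 and Lfng rose among 23 tested genes, and the median log2 fold change was -0.04. Hes1, a repressor gene that Notch induces and that hepatocytes and bile duct cells also express, was at 22.4, 24.7 and 19.2 CPM against 6.52, 5.65 and 9.41 (1.62 ± 0.19, adjusted p = 0.00391). Lfng, whose product modifies Notch receptors with sugar, was at 3.52, 5.44 and 5.12 CPM against 2.27, 1.499 and 1.82 (1.33 ± 0.25, adjusted p = 0.0153). The receptor genes Notch2 and Notch3, named after their values were seen, had log2 fold changes of -0.19 ± 0.15 (adjusted p = 0.460) and 0.01 ± 0.51 (adjusted p = 0.993). For 24 genes of flow sensing and nitric oxide signalling, Thbd and Mef2d, a transcription factor gene upstream of Klf2, rose (Mef2d 0.69 ± 0.13, adjusted p = 0.0132), with a median of 0.23. None of the 12 tested VEGF and angiopoietin ligand genes passed the test (median 0.06), where 2 had an unadjusted p below 0.05. Thbd, Hes1 and Cd4 were called with each library left out. Tmem204, Lfng and Mef2d lost their calls without Lira162 or PBS158, and Tmem204 also without PBS157. Cd93 kept its call only without PBS155, and lost it with upper quartile factors or library totals as the scaling and with a mean CPM of at least 5 as the filter. The 9 calls in these lists became 26 without PBS155, 14 without Lira164 and 4 without Lira162 or PBS158. The number of changed genes over the whole table also differed between these comparisons, as given above, so these counts are no result about the lists. DESeq2's Wald test called 25 of 146, and 12.2% of all genes.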

How the data were processed

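Per the submitters' processing notes, reads were aligned with STAR to mm10. The deposited values are whole-number read counts for each gene symbol, without normalization. No source used here gives the counting tool, annotation, strand setting or versions. Columns carry a group and a number that matches no label, so each was assigned to its group only. Libraries of a group differed by more than sampling noise (chi-square per degree of freedom between 31.0 and 61.3), so none is a copy of another.

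Genes kept by edgeR's filterByExpr (12626 of 16949 with at least 1 count) were TMM-normalised. The quasi-likelihood model (edgeR 4.0.16, R 4.3.3) had 1 term, the group, and robust dispersions. Its two-sided p-values were Benjamini-Hochberg adjusted across the tested genes. A standard error is the log2 fold change divided by the square root of F. Group levels used log2 CPM with a prior count of 2.

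The members and lists were chosen with earlier results of these data known. Of 282 entries in 17 lists, 10 matched through an older symbol and 6 had no match. Values in every library were given for called members and the 3 with the smallest p in each role group. Positions and exon lengths are from GENCODE M21 (GRCm38), the promoters from RefSeq (GRCm38.p6). Alternatives were DESeq2 1.42.0 size factors or its Wald test, upper quartile factors, library totals, other filters, limma-voom (limma 3.58.1) and each library left out. Figures used matplotlib 3.10.9.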

Additional observations from a re-analysis of the deposited data

How the results depend on the processing

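The direction of the 10 calls held under every alternative run. No paired analysis was possible because the columns carry none of the labels' triplicate numbers. With each library left out in turn, the number of changed genes lay between 393 and 1496, that of endothelial members between 3 and 21 and that of the other vascular list genes between 4 and 26. DESeq2's Wald test gave 17 members and 25 other vascular list genes, where the quasi-likelihood test gave 10 and 9; over all genes the tests called 1621 of 13330 and 1107 of 12626. Library totals as the scaling moved the changed genes of the whole table to 609 higher and 456 lower, from 515 and 592, and called 11 members, all higher. Apart from single libraries, 291 of the values of single members kept their side of the threshold, 9 passed, 1 no longer passed and 2 changed sign. The 2 were Gja5, at 0.0029 with upper quartile factors and 0.0469 with library totals. With a library left out, Gja5 lay between -0.42 and 0.41, Dll4 between -0.53 and 0.27, Efnb2 between -0.31 and 0.33, Vwf between -0.21 and 0.49, Gata4 between -0.15 and 0.32 and Cd34 between -0.059 and 0.44 on the log2 scale, none of them called. The cause of these changes was not tested. Low counts, 2 to 13 per library for Gja5 and 5 to 13 for Hey1, limit what can be seen.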

Other observations

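Markers of cells not described above gave the following values, from lists chosen with earlier results of these data known. Of 7 tested bile duct genes Spp1, the osteopontin gene, fell from 40.9, 33.5 and 34.4 CPM in PBS155, PBS157 and PBS158 to 19.2, 20.6 and 21.6 in libraries Lira161, Lira162 and Lira164 (log2 fold change -0.82 ± 0.11, edgeR adjusted p = 0.00508), a call kept with each library left out, and the median of the 7 was -0.37, with none above 0. Among 2 tested red cell genes Alas2, the erythroid enzyme of heme synthesis, fell (-1.48 ± 0.28, adjusted p = 0.0263), although not when Lira164 or any PBS library was left out, nor without the filter on low counts (adjusted p = 0.0601). The other, the globin gene Hbb-bs, was at 60.4, 25.2 and 18.2 CPM in Lira161, Lira162 and Lira164 and at 66.3, 87.5 and 67.5 in PBS155, PBS157 and PBS158, without overlap and without a call (-1.10 ± 0.48, adjusted p = 0.231). The globin genes Hbb-b1, Hbb-b2, Hba-a1 and Hba-a2 are listed at 0 in all libraries. Of 4 tested T and natural killer cell genes Cd4 fell, as given above, while Klrb1c, Nkg7 and Cd3g had log2 fold changes of 1.59, 1.26 and 0.64 without a call (adjusted p = 0.117, 0.144 and 0.459), and the median of the 4 was 0.95. None of 6 B and plasma cell genes, 2 neutrophil and platelet genes and 5 mesothelial genes passed the test, where 1, 0 and 0 had an unadjusted p below 0.05.

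Of 16 tested hypoxia response genes Ldha, the lactate dehydrogenase gene, rose, from 1097, 1378 and 1272 CPM in the PBS libraries to 2247, 2471 and 1868 in the liraglutide libraries (0.81 ± 0.15, adjusted p = 0.0127), and the median log2 fold change of the list was -0.05. Of 20 tested leukocyte adhesion and NF-kB genes outside the members, the chemokine gene Cxcl12 fell (-0.63 ± 0.15, adjusted p = 0.0368), and the median of the 20 was 0.18. Which cells of the liver the Cxcl12 RNA came from was not tested. Cxcl12 kept its call only without Lira164 among the comparisons with a library left out, and lost it with library totals as the scaling.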
